A study of Caenorhabditis elegans with 12 samples.

Results

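RDE-4 loss in otherwise wild-type worms was described from the antisense small RNA counts of every gene, in 3 libraries of the rde-4(ne301) mutant against 3 libraries of the N2 wild type (WT). The members are all 32238 genes of the count table, the same 32238 genes that were counted in the whole series, and 4797 of them had enough reads to be tested. Both strains were whole hermaphrodites of Caenorhabditis elegans, collected as young adults on the first day of adulthood with no embryos visible yet, and grown at 20 °C on OP50 bacteria. Each library came from a population of its own. The rde-4(ne301) strain was outcrossed to N2, its null mutation is carried by all cells of the worm, and the labels give no other allele or agent that differs between the strains. The series also holds worms with the age-1 allele hx546 alone and together with rde-4(ne301), raised and collected in the same way, which serve here as a second pair of strains with and without RDE-4.

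Primary small interfering RNAs (siRNAs) of worms are cut by Dicer from long RNA duplexes, and for many of these substrates Dicer needs RDE-4, which holds the duplex. In the ERI complex, Dicer acts on double-stranded RNA that the polymerase RRF-3 makes from a transcript, and the primary siRNAs are bound by the Argonaute ERGO-1, known for targets that are pseudogenes, non-coding RNAs and recently duplicated genes, or by ALG-3 and ALG-4 in the sperm-producing germline. Secondary siRNAs are then made on the target by other polymerases, and microRNAs are cut by Dicer with no need of RDE-4. An siRNA against a transcript lies antisense to its gene, but where another gene lies on the opposite strand the same read is sense to it, so that each gene was sorted by what lies opposite to it.

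Small RNAs with a 5′ monophosphate were enriched before sequencing, as Dicer products have, and reads were counted per gene on the antisense strand. The 6 libraries held between 2449703 and 2839774 antisense counts, of which 3 genes that lie opposite microRNA genes took 70.6% (WT) and 61.4% (rde-4). All levels below are in CPM, counts per 1000000 counts of a library after TMM scaling of the 6 libraries, which makes libraries comparable when a few genes take most reads. Fold changes are given on the log2 scale, rde-4 against WT, for n = 3 libraries a strain. The ± is a standard error derived from the F statistic of the edgeR fit, which shares information on spread among genes. The scaling factors ran from 0.825 to 1.35 in WT and from 0.790 to 0.969 in rde-4. The gene rde-4 itself had 3, 8 and 11 antisense counts in WT and 5, 5 and 2 in rde-4 and was not tested; its messenger RNA is not read here, so the strain labels could not be checked by it. Markers of tissues cannot be checked by antisense reads either: 0 of 11 markers of yolk and intestine, 2 of 10 of body wall muscle and 2 of 14 of neurons had enough reads to be tested. In whole worms, fewer cells of a type and fewer siRNAs per cell cannot be told apart.

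Antisense small RNAs fell at 767 genes in rde-4 and rose at 516. These are 16.0% and 10.8% of the genes tested (edgeR quasi-likelihood F test, adjusted p below 0.05), and with the replicate number as a block the counts were 882 and 642. A gene is called lost where it passed the test with a log2 fold change of -3 or below, reduced where it fell by less, and kept where it missed the threshold and the 95% interval of its log2 fold change lay within -1 to 1. So sorted, 199 genes were lost, 568 were reduced, 590 were kept and 516 were raised, while 2924 were unresolved, which missed the threshold and had wider intervals. The median log2 fold change over all genes tested was 0.06, and scaling by library totals moved it to -0.24. Scaled that way, 885 genes were lower and 391 higher.

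**Figure D1:**
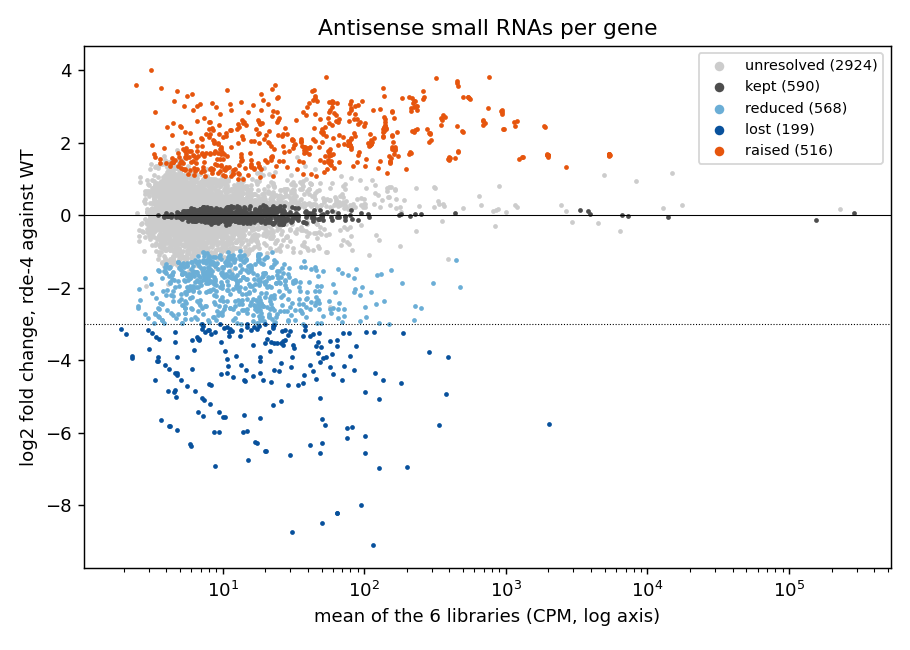
Log2 fold change between rde-4 and WT for each of the 4797 genes tested, against the mean of the 6 libraries in CPM on a log axis, coloured by class; genes with 0 to 3 counts in rde-4 stand at the ratio of their scaled sums, and the dotted line marks -3. Lost genes reach far below the line at low and at high levels, and raised genes reach up to 4.01.

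Falls were large at some genes and moderate at most. Of the 767 lower genes, 60 fell by at least 5 on the log2 scale, 45 by 4 to 5, 94 by 3 to 4, 250 by 2 to 3 and 317 by 1 to 2, and 1 fell by less than 1. The rde-4 level of the median lost gene was 5.50% of its WT level, and that of the median reduced gene was 26.97%. The libraries of the strains did not overlap at 198 of the 199 lost genes and at 565 of the 568 reduced genes, as against 1802 of all 4797. In same-numbered pairs of libraries, all 199 lost genes and 566 reduced genes were lower in rde-4 in each of the 3 pairs, as against 1266 of all 4797. The classes were called from these same libraries, so neither the overlap nor the pairs are separate support. At the boundary, F32B6.4 (-3.001 ± 0.50) and bre-3 (-3.002 ± 0.41), which encodes a glycosyltransferase, were just inside the lost class, and D1081.5 (-2.99 ± 0.42) and wht-8 (-2.99 ± 0.55), a gene of the ABC transporter family, were just outside. The classes divide a continuous range.

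The protein-coding gene F43E2.6 had the highest CPM of the lost genes. It had 5506, 2310.3 and 4057 CPM in WT replicates 1 to 3 and 82.4, 68.2 and 70.6 CPM in rde-4 replicates 1 to 3. The groups lay far apart and the rde-4 libraries were close to each other. Its log2 fold change was -5.74 ± 0.52, adjusted p = 3.5e-06. The gene (WBcel235, chromosome II, 7366455 to 7368861) has no annotated gene on the other strand. The pseudogene Y17D7C.3 followed the same order in WT, with 1005, 287 and 907 CPM against 25.4, 19.38 and 26.7 CPM in rde-4 (-4.94 ± 0.56, adjusted p = 1.8e-05). Both were chosen after their values were seen.

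At 19 lost genes, 0 counts were left in the 3 rde-4 libraries together. Y17D7B.4, a protein-coding gene of chromosome V, had 36.4, 17.1 and 29.9 CPM in WT. Its 242 WT counts make its level at least 62.7-fold lower in rde-4, taking 3 counts over the group as the floor. F56D6.16, a pseudogene of chromosome IV, had 27.6, 14.4 and 20.6 CPM in WT and was at least 47.2-fold lower. The WT libraries of both genes all held reads, with replicate 2 the lowest. Y36E3A.2, which overlaps a gene on the other strand, had 56.6, 28.04 and 36.8 CPM in WT and was at least 90.7-fold lower. H09G03.1, H09G03.4 and H09G03.5, 3 neighboring lincRNA genes of chromosome III, were each at 0 in rde-4 as well, with 68, 82 and 143 counts in WT. The ncRNA gene W03D2.15 varied widely in WT, with 53.0, 4.63 and 31.8 CPM, and was at least 62.2-fold lower. These genes were chosen after their values were seen. A further 31 lost genes kept 1 to 3 counts over the 3 rde-4 libraries.

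Among lost genes that have no annotated gene on the other strand and at least 10 CPM in WT, the largest fall by the ratio of scaled sums was at W04B5.8, a protein-coding gene of chromosome III. It had 220.1, 144 and 329 CPM in WT and 0, 0 and 1.20 CPM in rde-4. With 3 counts left of 2086, the level was 541-fold lower, with an exact counting interval of 185 to 2623. Its neighbor W04B5.1, a pseudogene and known ERGO-1 target, had 79.4, 59.3 and 164 CPM in WT and 0, 0 and 0.80 CPM in rde-4, and was 360.0-fold lower (99.4 to 2977). Neither gene kept more than a trace in any rde-4 library. ZK380.5, a pseudogene of the X chromosome, had 75.4, 41.1 and 68.5 CPM in WT and 0, 0.42 and 0 CPM in rde-4, 422-fold lower with a wide interval of 75.4 to 16704, since 1 count was left. These intervals cover counting error only.

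Y116F11A.1, on chromosome V, had 381, 31.6 and 156 CPM in WT and 0.89, 0.42 and 0.80 CPM in rde-4. Its WT libraries spread widely, and still every one lay far above every rde-4 library. The log2 fold change was -7.98 ± 0.93, adjusted p = 2.2e-05. K02E2.6, a known ERGO-1 target (WBcel235, chromosome V, 20380561 to 20382036), had 317, 151 and 283 CPM in WT and 1.78, 1.69 and 2.39 CPM in rde-4, and fell with a log2 fold change of -6.96 ± 0.57, adjusted p = 2.9e-06. T05E12.8, another of them (chromosome V, 17069139 to 17069921), had 707, 125 and 366 CPM in WT and 2.67, 3.79 and 3.19 CPM in rde-4. Its log2 fold change was -6.93 ± 0.70, adjusted p = 7.0e-06. In both genes WT replicate 2 was the lowest WT library, and no library overlapped between the strains. fbxc-37, an F-box gene annotated as a pseudogene, showed the same order in WT with 173, 20.7 and 95.3 CPM, against 1.34, 0 and 1.60 CPM in rde-4 (-6.55 ± 0.86, adjusted p = 5.2e-05). The rest of the 15 largest falls of this kind were Y116A8B.1, Y43F8B.9, Y17D7C.6, H16D19.7, W04C9.8, C44B11.6, linc-19, linc-45 and linc-66. They had between 9.03 and 155 CPM in all but 1 of their WT libraries, the exception being linc-19 in WT replicate 2 with 5.99 CPM, and at most 1.60 CPM in any rde-4 library.

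**Figure D2:**
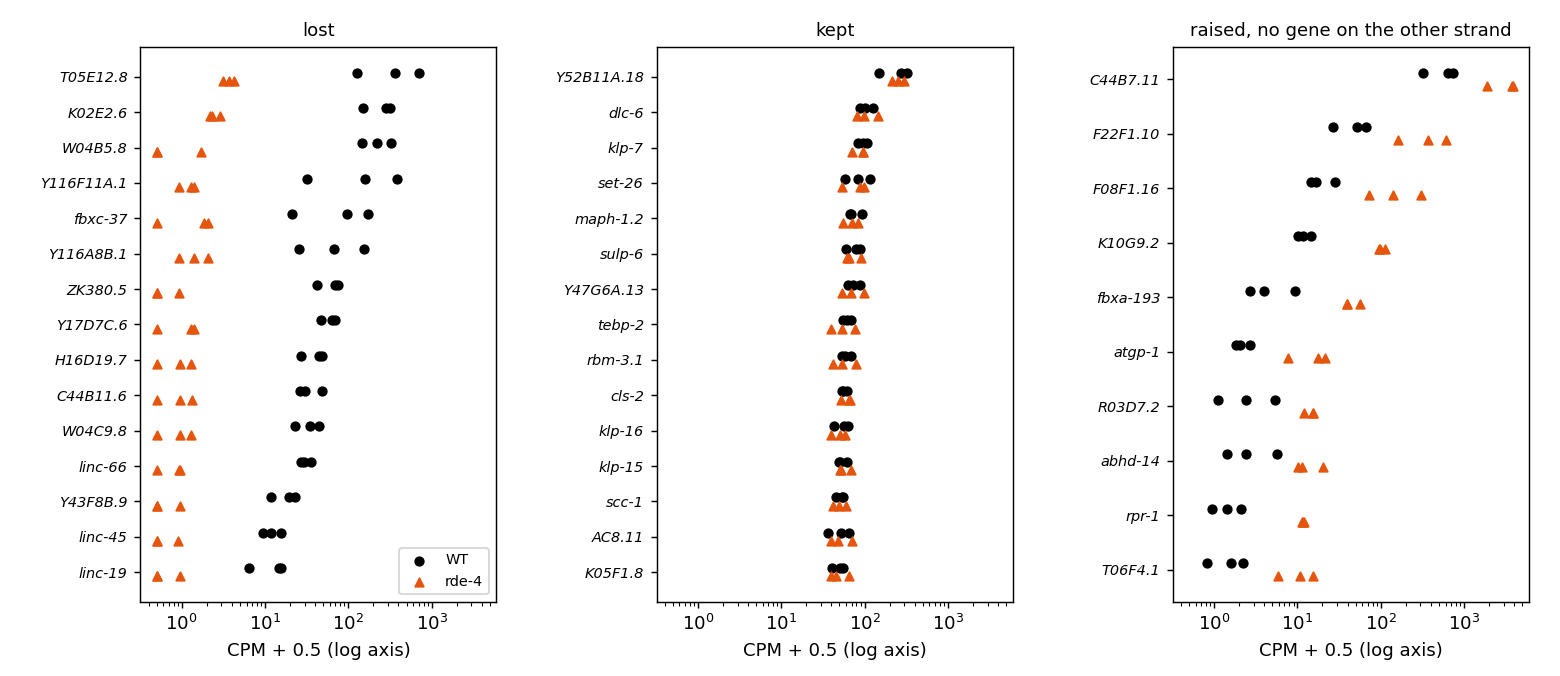
Level in each library, in CPM + 0.5 on a log axis, of the 15 lost genes with the largest falls, the 15 kept genes with the highest levels and the 10 raised genes with the largest rises, all without an annotated gene on the other strand; circles are the 3 WT libraries and triangles the 3 rde-4 libraries. WT and rde-4 libraries are apart in every lost and raised gene and overlap in every kept gene.

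The known ERGO-1 targets were all lost, 11 of 11 tested members, and their median was -5.83. Taking genes with 0 to 3 rde-4 counts at the ratio of their scaled sums, it was -5.63. Here 199 of all 4797 genes were lost and the median was 0.06. Listed genes with few rde-4 reads were tested only through their WT reads, so a lower call was close to set in advance for them. The summed level of the 11 genes ran from 560 to 1728 CPM in WT and from 10.5 to 23.9 CPM in rde-4. Y37E11B.2 had 242, 91.5 and 151 CPM in WT and 3.12, 0.84 and 4.39 CPM in rde-4, and the pseudogene F39E9.7 had 163, 42.7 and 90.3 CPM in WT and 0.89, 0.84 and 3.99 CPM in rde-4. Both have an annotated gene on the other strand. E01G4.5 had 68.8, 11.98 and 52.0 CPM in WT and 0.89, 0.42 and 1.99 CPM in rde-4. WT replicate 2 was again the lowest WT library in each of these 3 genes. C18D4.4 was the only member with 0 counts in rde-4, where 90 WT counts make it at least 23.3-fold lower. 

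Some genes named for sperm proteins were picked from the lost and reduced genes after their values were seen, so they say nothing of how common such names are. spch-1, spch-2 and spch-3 encode sperm chromatin proteins. spch-1 had 666, 793 and 744 CPM in WT and 69.1, 51.0 and 26.7 CPM in rde-4 (-3.91 ± 0.48, adjusted p = 3.1e-05). spch-3 had 429, 525 and 657 CPM in WT and 44.6, 37.5 and 35.9 CPM in rde-4 (-3.77 ± 0.44, adjusted p = 2.2e-05). spch-2, in the reduced class, had 377, 390.0 and 404 CPM in WT and 77.1, 68.7 and 61.8 CPM in rde-4 (-2.50 ± 0.40, adjusted p = 2.4e-04). All 3 genes kept over 20 CPM in every rde-4 library, unlike the known ERGO-1 targets above. smz-1, which encodes a PDZ-domain protein of sperm meiosis, had 263, 231 and 189 CPM in WT and 14.3, 8.43 and 10.8 CPM in rde-4 (-4.35 ± 0.46, adjusted p = 9.1e-06). smz-2, its paralog, had 47.3, 35.7 and 37.1 CPM in WT and 1.78, 5.90 and 1.20 CPM in rde-4 (-3.74 ± 0.50, adjusted p = 5.8e-05). The WT libraries of these genes were close to each other and far from the rde-4 libraries. Among small families, msrp-5 and msrp-6, which stand next to linc-66, fell with log2 fold changes of -4.68 ± 0.46 and -4.68 ± 0.50, and the Major Sperm Protein domain genes msd-2 and msd-3 with -3.16 ± 0.44 and -3.17 ± 0.45. Near-identical copies in these families can share reads.

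Other lost genes have neither such a name nor a place on the ERGO-1 list. ZK1010.5, a protein-coding gene of chromosome III, had 530.5, 681 and 762 CPM in WT and 13.8, 12.6 and 9.57 CPM in rde-4 (-5.77 ± 0.49, adjusted p = 2.9e-06). lin-61, which encodes a protein of chromatin repression with MBT repeats, had 163, 162 and 158 CPM in WT and 15.6, 13.5 and 10.4 CPM in rde-4 (-3.61 ± 0.42, adjusted p = 2.2e-05). The 3 WT libraries of lin-61 lay within 6 CPM of each other. ubc-7, a ubiquitin-conjugating enzyme gene, had 102, 94.4 and 79.4 CPM in WT and 12.5, 6.74 and 3.19 CPM in rde-4 (-3.62 ± 0.49, adjusted p = 6.1e-05), and kin-26, a gene of the protein tyrosine kinase family, had 127, 149 and 207 CPM in WT and 11.14, 9.27 and 4.79 CPM in rde-4 (-4.26 ± 0.48, adjusted p = 1.8e-05). In all 4 genes the strains did not overlap. cyc-2.2, a cytochrome c gene, fell with -4.26 ± 0.46. These 5 were chosen after their values were seen.

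WT replicate 2 stood apart from the other WT libraries at part of the lost genes. Of the 48 lost lincRNA, ncRNA and pseudogene genes, 39 were lowest in WT replicate 2, and their median log2 ratio of replicate 2 to replicate 1 was -0.94. Of the 145 lost protein-coding genes, 46 were lowest in replicate 2, 57 in replicate 1 and 42 in replicate 3, with a median ratio of 0.09. Over all genes tested, 1504 of 4797 were lowest in replicate 2, with a median ratio of 0.01. Known ERGO-1 targets were lowest there in 10 of 11 cases, and the nematode-specific peptide genes in 0 of 7. The median log2 ratio of rde-4 to WT in pairs 1, 2 and 3 was -5.18, -3.97 and -4.24 for the non-coding lost genes, and -3.26, -3.57 and -3.95 for the coding ones. All 3 pairs showed the fall in both sets, which were called lost from these same libraries. Without WT replicate 2, all 199 lost genes were lower and 188 of them lost.

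The kinds of genes differed between the classes, among genes with enough reads to be tested. A gene with few rde-4 reads is tested only through its WT reads, so the shares do not cover untested genes. Of lincRNA genes, 18 of 31 tested were lost (58.1%), and of pseudogenes 20 of 170 (11.8%), while 145 of 3942 protein-coding genes were lost (3.68%) and 540 were reduced (13.7%). Among genes that have no annotated gene on the other strand, 13 of 23 lincRNA genes were lost, 16 of 143 pseudogenes, 7 of 33 ncRNA genes and 4.08% of 2917 protein-coding genes. Lost genes were short and reduced genes were of middle length. The median of summed exon lengths was 748 bases for lost genes, 1074 for reduced, 2331 for kept and 1526 for all genes tested. Per kilobase, the median WT level was 44.8 CPM for lost genes, 17.5 CPM for reduced genes and 5.03 CPM for kept genes. A lost or reduced call needs enough WT reads, so this order follows in part from how the classes were defined. 

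Places on the chromosomes differed as well, here among genes that have no annotated gene on the other strand. On the autosomes, the reduced share ran from 12.01% of 616 genes on chromosome III to 18.9% of 666 on chromosome IV. On the X chromosome, 3 of 123 genes were reduced (2.44%) and 11 were lost (8.94%), and of its 88 protein-coding genes 2 were reduced and 5 lost. The lost share of the autosomes ran from 3.90% on chromosome III to 5.91% on chromosome V. Within the autosomes, 81 of 1213 genes in the outer zones were lost (6.68%) and 65 of 1801 in the inner zones (3.61%), with the outer zones being the stretches within 25% of a chromosome's length of either end. Reduced genes went the other way, with 136 (11.2%) in the outer and 329 (18.3%) in the inner zones. Among protein-coding genes alone, 4.72% of the outer and 3.59% of the inner genes were lost. These shares are descriptions with no test.

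**Figure D3:**
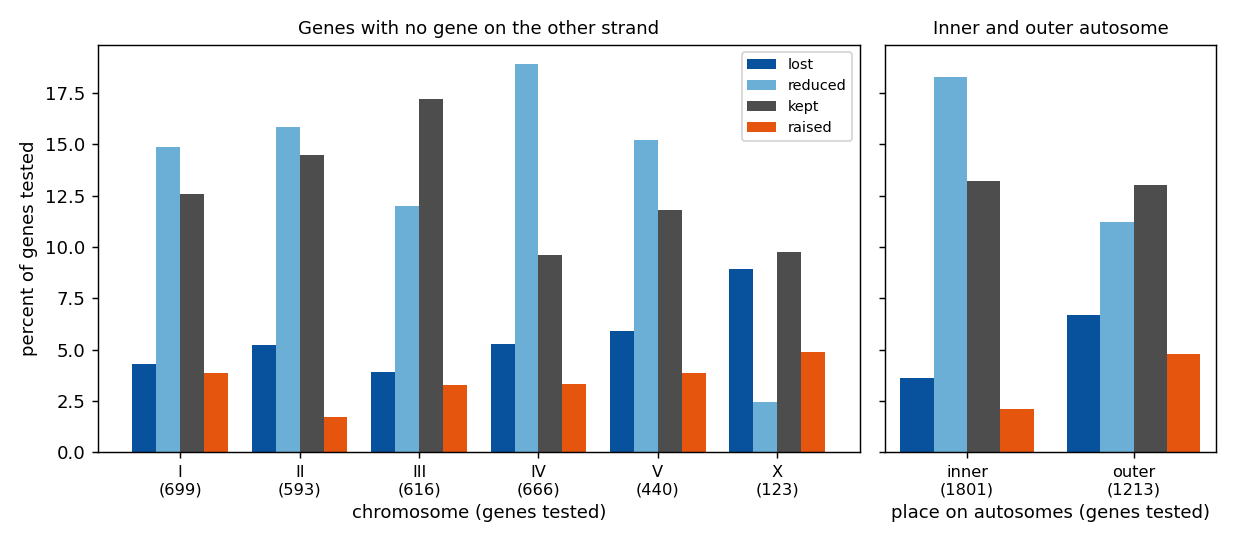
Share of the tested genes in each class, in percent, by chromosome and by place on the autosomes (outer means within 25% of the chromosome's length of either end), among genes that have no annotated gene on the other strand; numbers in parentheses are genes tested. The X chromosome holds few reduced genes, 2.44%, against 12.01% to 18.9% on the autosomes.

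Many lost genes stood near each other. Of 290 tested genes that lay within 10 kb of a lost gene, 61 were lost themselves (21.03%), against 196 of all 4679 placed genes (4.19%). They formed 28 groups of 2 or 3 genes. For the reduced class the same share was 21.6% against 11.99%, for the kept class 18.2% against 12.2% and for the raised class 31.3% against 10.7%. Some neighbors overlap and share reads, such as fbxa-3 and linc-16, which lie on the same strand and had nearly the same WT levels, 226, 51.7 and 322 CPM for fbxa-3 and 226, 51.2 and 322 CPM for linc-16. Groups with no overlapping genes include linc-19, linc-45 and C44B11.6, a known ERGO-1 target, which lie on the same strand of chromosome III between 3150222 and 3153336 (WBcel235), and nspd-3, C24D10.2 and nspd-6 on chromosome IV, which do not all lie on the same strand.

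Reduced genes with the highest WT levels were ZK930.4, C38C10.3, ZK666.8, K12C11.5, spch-2 and ZK507.3. ZK930.4 had 606, 819 and 861 CPM in WT and 214, 171 and 193 CPM in rde-4. Its log2 fold change was -1.98 ± 0.40, adjusted p = 0.0013. ZK507.3 had 283, 407 and 504 CPM in WT and 73.1, 48.4 and 38.7 CPM in rde-4 (-2.90 ± 0.45, adjusted p = 1.8e-04), close to the lost class. In both genes the strains lay well apart, and WT replicate 1 was the lowest WT library. K12C11.5 had 299.9, 513 and 471 CPM in WT and 118.98, 50.6 and 48.3 CPM in rde-4 (-2.56 ± 0.48, adjusted p = 7.1e-04), and ZK666.8 had 356, 478 and 603 CPM in WT and 175, 96.5 and 122 CPM in rde-4 (-1.87 ± 0.43, adjusted p = 0.0032). C38C10.3 kept most, with 429.7, 669 and 763 CPM in WT and 303, 247 and 245 CPM in rde-4 (-1.23 ± 0.41, adjusted p = 0.033), and its groups did not overlap. Its call was lost without any 1 library other than WT replicate 1, at adjusted p of 0.066 to 0.15, and among genes that have no opposite gene alone (adjusted p = 0.078).

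Sperm gene families held many lower genes, to be read against 568 of all 4797 genes tested that were reduced and 199 that were lost. Of the Major Sperm Proteins, which build the moving cytoskeleton of sperm and signal to oocytes, 12 of 24 tested members were reduced and 0 were lost, kept or raised, with a median of -1.20. With the replicate block 16 were lower, and with DESeq2 7 changed. Reads that map to several places were kept, so copies of a gene can share them and these calls may not be separate results. msp-33 had 21.04, 17.4 and 17.8 CPM in WT and 8.91, 4.21 and 3.99 CPM in rde-4 (-1.71 ± 0.39, adjusted p = 0.0032). Of the sperm-specific P and Q families, 12 of 15 were reduced and ssp-19 was lost, with a median of -2.18, and 14 were lower with the replicate block. ssp-10 had 51.7, 50.9 and 45.2 CPM in WT and 6.68, 10.5 and 6.38 CPM in rde-4 (-2.64 ± 0.38, adjusted p = 1.1e-04). The strains were apart in both genes. Of the spe and fer genes, which are needed for making, activating or using sperm, 7 of 19 were reduced and 2 were lost, while spe-29 was raised and 1 was kept. With the replicate block 9 were lower and 2 raised. spe-10, a palmitoyltransferase gene, had 24.99, 28.9 and 26.2 CPM in WT and 4.01, 2.95 and 2.39 CPM in rde-4 (-3.09 ± 0.39, adjusted p = 4.1e-05), and spe-6, a kinase gene, had 44.7, 93.1 and 76.3 CPM in WT and 14.3, 12.6 and 8.77 CPM in rde-4 (-2.59 ± 0.42, adjusted p = 2.6e-04). spe-29 lies opposite gon-1, a protein-coding gene, so its counts are sense reads of that gene as well. Of 67 small nematode-specific peptide genes, 7 were tested, and 5 of these were lost and 1 was reduced. Their median was -3.84, or -4.01 with genes of 0 to 3 counts at the ratio of their sums. Members with few rde-4 reads were tested only through their WT reads, so these shares do not cover untested members. nspd-6 had 17.5, 15.2 and 13.4 CPM in WT and 1.34, 0.42 and 0 CPM in rde-4 (-4.66 ± 0.59, adjusted p = 3.9e-05). gsp-3 and gsp-4, sperm forms of the protein phosphatase 1 catalytic subunit, fell with -1.86 ± 0.47 and -2.34 ± 0.51, and the call of gsp-3 was lost without rde-4 replicate 2 (adjusted p = 0.053). gsp-2, a form used in other cells too, had a log2 fold change of 0.35 ± 0.35 and did not pass.

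Of 170 lincRNA genes of the linc series, 23 were tested. Among those, 12 were lost, 2 were reduced and 2 were raised, with a median of -3.82. With the replicate block 16 were lower and 3 raised. Here too, genes with few rde-4 reads were tested only through their WT reads. The counts of the lists below stand beside 16.0% of all genes tested that were lower and 10.8% that were higher. Of 390 F-box genes in the count table, 35 were tested. Of these, 4 were lost and 3 were raised, or 5 raised with the replicate block, with a median of 0.28. The lost ones were fbxc-37, fbxa-3 (-6.08 ± 0.72), fbxc-38, which kept 2 of 110 counts, and fbxa-52, which kept 0 of 37. Because fbxa-3 overlaps and shares reads with linc-16, a lost gene of the linc series, these are not separate losses. Of ribosomal protein genes, 3 of 51 were reduced and 3 were raised, and with the replicate block 4 were lower and 7 raised. rpl-41.2 had 35.5, 41.9 and 40.5 CPM in WT and 6.24, 4.63 and 5.19 CPM in rde-4 (-2.87 ± 0.37, adjusted p = 4.8e-05), whereas rps-27 had 5.70, 8.17 and 7.48 CPM in WT and 53.9, 24.9 and 21.9 CPM in rde-4 (2.22 ± 0.42, adjusted p = 8.0e-04). The libraries of the strains did not overlap in either gene. Of C-type lectin genes, 4 of 12 were reduced, among them clec-123 and clec-38 (-2.18 ± 0.37 and -2.36 ± 0.48). Of chemoreceptor genes, 2 of 20 were raised and str-38 was reduced. By the edgeR test, 0 of 14 BTB and MATH genes and 0 of 9 histone genes changed. Of genes listed as collagens by name alone, 0 of 9 changed. The counts were 0 of 16 for oocyte and germline regulators and 0 of 7 for genes of insulin/IGF-1 signaling. At an unadjusted p below 0.05 these counts were 0, 1, 3, 2 and 0, and with DESeq2 each was 0. With the replicate block 5 members passed: deps-1 (-1.08, adjusted p = 0.019) and pgl-3 (-0.92, adjusted p = 0.020), both of germ granule proteins, the histone gene his-70 (-1.12, adjusted p = 0.043), and col-45 (1.33, adjusted p = 0.046) and rol-3 (1.39, adjusted p = 0.013), which are on the collagen list by their names.

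Genes of the siRNA pathways had few antisense small RNAs, and most did not pass. alg-3 and alg-4, the Argonaute genes of the sperm-producing germline, were reduced. alg-3 had 20.2, 21.2 and 17.1 CPM in WT and 10.2, 8.004 and 6.38 CPM in rde-4 (-1.25 ± 0.35, adjusted p = 0.013). alg-4 had 22.4, 19.3 and 14.02 CPM in WT and 10.2, 4.63 and 9.17 CPM in rde-4 (-1.20 ± 0.38, adjusted p = 0.028). The libraries of the strains did not overlap, but both calls depend on the settings. Without rde-4 replicate 2 the adjusted p was 0.068 for alg-3 and 0.18 for alg-4, and for alg-4 it was 0.098 without WT replicate 1 and 0.071 without WT replicate 2. The alg-4 call was also lost with DESeq2 (adjusted p = 0.060) and among genes that have no opposite gene alone (adjusted p = 0.053). The log2 fold change was 0.30 ± 0.37 for dcr-1, which encodes Dicer, -0.56 ± 0.53 for rrf-3, 0.09 ± 0.48 for ergo-1 and 0.42 ± 0.38 for rde-1, the Argonaute of the response to foreign double-stranded RNA, and none of the 4 passed. eri-1 and nrde-3 had too few reads to be tested, with 7 to 12 and 1 to 6 counts per library. rrf-2, a gene of the RNA-dependent RNA polymerase family, was raised, with 1.75, 1.91 and 0.93 CPM in WT and 4.90, 5.06 and 5.19 CPM in rde-4 (1.70 ± 0.52, adjusted p = 0.023). That call was lost without any 1 library other than WT replicate 1, at adjusted p of 0.068 to 0.13, and also under library totals, scaling by counts opposite miRNA genes, DESeq2 and no filter, at 0.069 to 0.23.

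**Figure D4:**
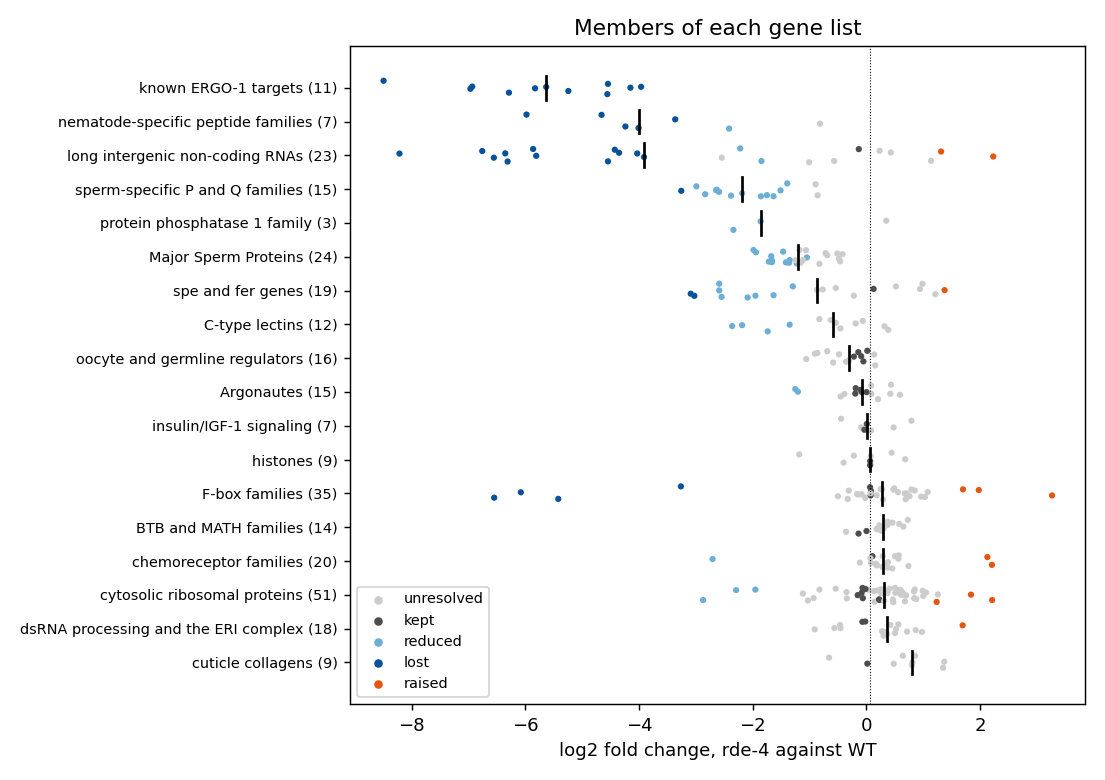
Log2 fold change between rde-4 and WT of each tested member of each gene list with at least 3 tested members (number in parentheses), coloured by class; genes with 0 to 3 counts in rde-4 stand at the ratio of their scaled sums, short lines are list medians and the dotted line is the median of all genes. Known ERGO-1 targets lie lowest, with a median of -5.63 on this scale, and lists from the oocyte regulators down stand within 1 of the dotted line.

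The kept class shows genes whose antisense small RNAs stood at the same level within the precision of 3 libraries a strain. The 15 with the highest CPM and no annotated gene on the other strand were Y52B11A.18, dlc-6, klp-7, set-26, maph-1.2, sulp-6, Y47G6A.13, tebp-2, rbm-3.1, cls-2, klp-15, klp-16, scc-1, AC8.11 and K05F1.8. Y52B11A.18 had 321, 150.2 and 273 CPM in WT and 293, 216 and 250.1 CPM in rde-4. The 95% interval of its log2 fold change of 0.03 was -0.85 to 0.91. klp-7, a kinesin gene whose product takes microtubules apart, had 82.4, 106 and 94.4 CPM in WT and 70.0, 95.2 and 94.9 CPM in rde-4 (-0.92 to 0.68). The libraries of both genes overlapped between the strains. klp-15 and klp-16, a pair of like kinesin genes of the oocyte spindle, had intervals of -0.69 to 0.86 and -0.91 to 0.66. cls-2, a gene of the CLASP family of microtubule proteins, had -0.65 to 0.88. scc-1, a cohesin subunit gene, had 55.2, 44.9 and 52.6 CPM in WT and 41.9, 49.3 and 59.8 CPM in rde-4 (-0.78 to 0.75), and tebp-2, which encodes a telomere-binding protein, had -0.95 to 0.69. In each of the 15 genes the interval reached at least 0.65 in size on both sides, so smaller changes could not be seen at this precision.

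How many genes count as kept depended on the settings. With intervals within -1.5 to 1.5 there were 2412, and within -0.75 to 0.75 there were 10. The replicate block gave 1038, library totals 262, scaling by the counts opposite miRNA genes 164 and DESeq2 233, and leaving out 1 library gave 92 to 371, the fewest without WT replicate 3 and the most without rde-4 replicate 1. None of the 590 was called lower or higher under any of these settings, nor under library totals or scaling by the counts opposite miRNA genes. Of 15 Argonaute genes 5 were kept, among them csr-1, the germline Argonaute (-0.19, -0.99 to 0.60), and of 16 oocyte and germline regulators 5, among them fbf-2, a gene of the Pumilio family (-0.14, -0.95 to 0.67). With the replicate block both counts were 8. Among all 4797 genes tested, 590 were kept, and 1038 with the block.

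Most raised genes lie opposite a short structured RNA gene, so that the counted reads are sense reads of that RNA. Of the 516, 319 lie opposite a tRNA gene, 15 opposite snRNA genes and 1 opposite an rRNA gene, and 102 have no annotated gene on the other strand. The raised share was 94.4% of 338 tested genes opposite a tRNA gene and 46.9% of 32 opposite an snRNA gene. It was 3.25% of 3137 genes with no gene on the other strand, against 10.8% of all genes tested. C16D9.13, opposite a tRNA gene, had 108, 128 and 67.0 CPM in WT and 1172, 2378 and 676 CPM in rde-4 (3.80 ± 0.54, adjusted p = 9.2e-05). C12C8.7, also opposite a tRNA gene, had 7.89, 8.71 and 4.98 CPM in WT and 91.8, 162 and 49.5 CPM in rde-4 (3.80 ± 0.51, adjusted p = 5.8e-05). rde-4 replicate 2 was the highest and rde-4 replicate 3 the lowest of the rde-4 libraries in both, and all lay above WT. The other 3 of the 5 largest, ZK1067.10, C02B4.8 and F56F4.10, stood at 3.79, 3.71 and 3.64. The largest opposite an snRNA gene were C05G6.5 (2.24 ± 0.39), C15F1.14 (2.14 ± 0.51) and F08H9.14 (2.19 ± 0.44). Copies of these RNAs are near-identical and their reads can be shared.

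The 102 raised genes that have no annotated gene on the other strand were mostly protein-coding (86) and mostly at low levels. The median level was 3.85 CPM in the WT strain against 12.7 CPM in the mutant, and 28 of them rose by at least 2 on the log2 scale. K10G9.2, a protein-coding gene (WBcel235, chromosome III, 10285923 to 10288621), had 14.03, 9.80 and 11.2 CPM in WT and 95.4, 96.9 and 112 CPM in rde-4. Its log2 fold change was 3.12 ± 0.40, adjusted p = 4.5e-05, and the libraries within each strain were close to each other. The F-box pseudogene fbxa-193 had 8.77, 2.18 and 3.43 CPM in WT and 55.7, 38.8 and 38.7 CPM in rde-4 (3.27 ± 0.48, adjusted p = 1.1e-04). rpr-1, the RNA of RNase P, had 0.44, 1.63 and 0.93 CPM in WT and 11.59, 10.95 and 11.2 CPM in rde-4 (3.33 ± 0.47, adjusted p = 8.2e-05). No library overlapped in these 3 genes. C44B7.11, a protein-coding gene, had the highest CPM, with 637, 741 and 324 CPM in WT and 3741, 3828 and 1861 CPM in rde-4 (2.47 ± 0.47, adjusted p = 8.4e-04). The short ncRNA genes F22F1.10 and F08F1.16, of 67 and 79 bases, rose with 2.97 ± 0.54 and 3.14 ± 0.54, and both were highest in rde-4 replicate 2 and lowest in rde-4 replicate 3, as were the genes opposite tRNA genes. atgp-1, of the amino acid transporter heavy chains, T06F4.1, R03D7.2 and abhd-14 complete the 10 largest, with 3.09, 3.30, 2.56 and 2.39.

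The count of raised genes without an opposite gene moved with the settings. It was 170 with the replicate block, 39 under library totals, 53 with scaling by the counts opposite miRNA genes and 54 with DESeq2, and leaving out 1 library gave 54 to 131, with 54 without rde-4 replicate 2, 62 without WT replicate 2 and 131 without rde-4 replicate 3. Of the 102 genes, 28 were raised under every setting that kept all genes, among them all 10 named above, rps-27, the chemoreceptor gene srg-62, egl-8, which encodes a phospholipase C, and crtc-1, a transcriptional coactivator gene. Of the 199 lost genes, 197 were lower under all of those settings, of the 568 reduced genes 384, and of all 516 raised genes 273. Of the 590 kept genes, 0 met the kept rule under all of those settings, with 42 under library totals and 77 without WT replicate 3. unc-15, the gene of the muscle protein paramyosin, is 1 of the 102 with 1.75, 6.80 and 2.49 CPM in WT and 9.36, 20.2 and 7.98 CPM in rde-4 (1.68 ± 0.50, adjusted p = 0.018), and its call was lost without WT replicate 1, WT replicate 3 or rde-4 replicate 2, at adjusted p of 0.075 to 0.18, and under library totals, scaling by counts opposite miRNA genes and DESeq2, at 0.058 to 0.094.

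The age-1 background, whose 6 libraries are not shared with this comparison, shows what the same genes did when RDE-4 was absent from another strain. In age-1; rde-4 against age-1, 1201 of 4003 genes tested were lower (30.0%) and 763 higher (19.1%). The scaling factors of that comparison ran from 1.43 to 1.76 in age-1 and from 0.522 to 0.696 in age-1; rde-4. They lay further apart between strains than in the WT background, and scaling by library totals was not tried there. Of the 199 lost genes, 188 were tested there and 187 were lower, with a median log2 fold change of -3.93 against -4.09 in the WT background. Of the 568 reduced genes, 513 of 561 tested were lower, with a median of -2.19 against -1.88. Lower genes in both backgrounds numbered 700, which are 91.3% of those in the WT background and 58.3% of those in the age-1 background. Higher genes in both numbered 392, 76.0% and 51.4% of each list, and only 29 of the 392 have no annotated gene on the other strand. Of the raised genes, 454 were tested in the age-1 background, and 86.3% of those were higher there. Of the genes lower in the WT background, 1 was higher in the age-1 background, and of the raised genes 2 were lower. Across the 3557 genes tested in both, the log2 fold changes had a Pearson correlation of 0.89 and a Spearman correlation of 0.84, as a description, since genes are not independent replicates.

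The kept class is described there by the same rule. Of 515 kept genes tested in the age-1 background, 22 were lower (4.27%) and 61 higher (11.8%), against 28.1% and 20.7% of all 3557. The kept rule was met again by 26 of the 515. Few genes met it there: of the other genes tested in both backgrounds, only 1 reduced and 37 unresolved ones did. Y52B11A.18, kept here, had a log2 fold change of 1.32 ± 0.40 there (adjusted p = 0.012), and AC8.11 had 1.02 ± 0.37 (adjusted p = 0.029). Of the 102 raised genes with no opposite gene, 65 were tested there, 29 were higher and 1 was lower. K10G9.2 rose there too (1.54 ± 0.48, adjusted p = 0.014), while fbxa-193 had 0.69 ± 0.42 (adjusted p = 0.19) and R03D7.2 had 0.06 ± 0.46 (adjusted p = 0.92). Of the lost genes named above, K02E2.6 fell there with -8.32 ± 0.62 and T05E12.8 with -5.39 ± 0.64.

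The gene lists are set side by side for the backgrounds. Of the known ERGO-1 targets, 11 of 11 were lower in the age-1 background, 10 of them lost. Of the Major Sperm Proteins 17 of 23 were lower, of the P and Q families 15 of 15 and of the nematode-specific peptide genes 6 of 7. In the WT background these counts were 11 of 11, 12 of 24, 13 of 15 and 6 of 7. Of F-box genes, 9 of 25 were higher in the age-1 background and 3 of 35 in the WT background, and of chemoreceptor genes 9 of 13 and 2 of 20. The list counts were not compared by a test, and a larger share of all genes was called in the age-1 background. In both backgrounds, members with few reads without RDE-4 were tested only through the strain with RDE-4.

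Whether an effect of RDE-4 loss differed between backgrounds was tested by the interaction in a fit of all 12 libraries, which called 9 of 5843 genes (0.154%). The Y52B11A.18, AC8.11, fbxa-193 and R03D7.2 differences did not pass this test, at adjusted p of 0.14 to 0.60. linc-18, opposite the protein-coding gene sdz-14 on chromosome I, had 20, 39 and 28 counts in WT and 63, 52 and 70 in age-1. In rde-4 it had between 70 and 124 counts, and the 3 libraries of the double mutant had 0. It was raised in rde-4 and lost all reads in the double mutant (interaction adjusted p = 2.8e-06). Y110A2AL.1, too low for the test within the WT background, had 16, 9 and 21 counts in WT and 0 in all rde-4 libraries, and its age-1 libraries had 13, 2 and 16, those of the double mutant 6, 9 and 8 (interaction adjusted p = 0.030). The other 7 genes were C05G6.5, F08G2.17, F15H9.9, R05D7.8, W07G1.17, Y47H9A.5 and Y54G9A.14, of 202 to 208 bases, 6 of them opposite an snRNA gene and R05D7.8 not placed. They rose in rde-4 by 1.46 to 2.24 and in the double mutant by 4.46 to 5.06 on the log2 scale. The interaction was 2.81 to 3.27, and no scaling other than TMM was tried for it. Leaving out replicate number 1, 2 or 3 of WT and rde-4, only linc-18 passed each time. With the replicate number as a block across all 12 libraries, 24 genes passed, fbxa-193 and rpr-1 among them. The labels do not say whether same-numbered libraries of both backgrounds share anything. At an unadjusted p below 0.05 there were 515 genes.

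**Figure D5:**
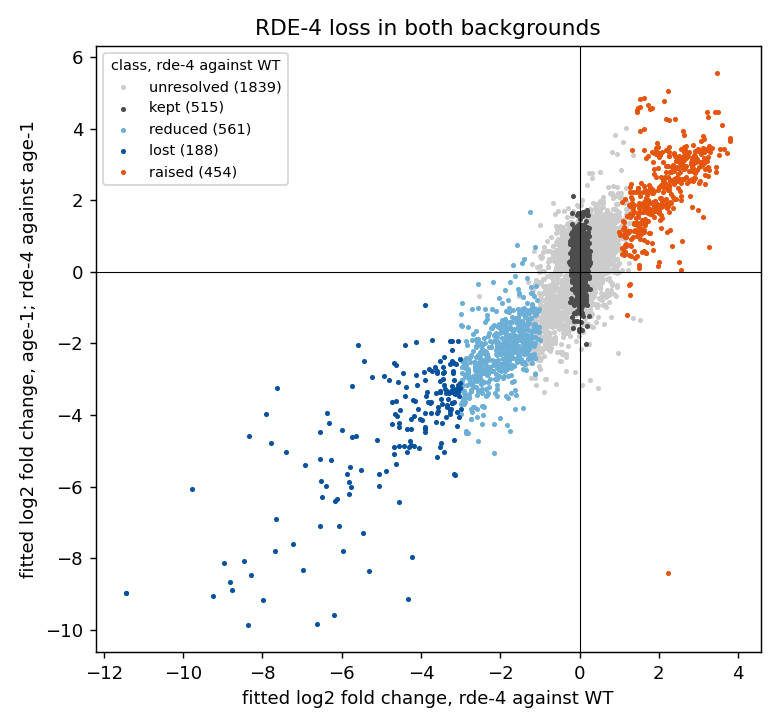
Fitted log2 fold change of each of 3557 genes tested in both backgrounds, rde-4 against WT on the x axis and age-1; rde-4 against age-1 on the y axis, coloured by the class in the WT background; fitted values of genes with 0 counts in a strain depend on the fit and are not measured sizes. Lost, reduced and raised genes lie along the diagonal, kept genes spread along the y axis, and the raised gene far below 0 on the y axis is linc-18.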

How the data were processed

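Antisense small RNA reads were mapped to the WBcel235 assembly with Bowtie through QuasR and counted per gene by the authors, who deposited raw counts with a width for each gene in bases. Reads that map to several places were kept, so copies of a gene can share them. Reads of 6 libraries, WT and rde-4 with 3 biological replicates each, were tested, and the 6 age-1 and age-1; rde-4 libraries came from a separate table, so levels were not compared across tables except in the interaction. Genes with enough reads were chosen by edgeR's filterByExpr, scaled by TMM and tested by the quasi-likelihood F test with Benjamini-Hochberg adjustment (R 4.3.3, edgeR 4.0.16, limma 3.58.1). The scripts were tested on simulated data. DESeq2 1.42.0, RLE size factors, library totals, scaling by counts opposite miRNA genes, no filter, genes with no opposite gene alone and leaving out each library were the alternatives. P-values rest on the spread between populations of worms.

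Same-numbered WT and rde-4 libraries deviated together. Correlations of their deviations from the group means were 0.33, 0.19 and 0.40 over 4797 genes, against -0.30 to -0.02 for other pairs. Deviations cancel within a strain for each gene, so the negative values follow from the positive ones and are no separate evidence. The replicate number served as a pair in a second fit. The numbers come from the labels, which do not say what is shared.

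Gene places, kinds and genes on the other strand came from the reference annotation. Fold changes against a group with 0 counts are bounds against 3 counts over its libraries, while those of 1 to 3 counts are ratios of scaled sums with exact 95% intervals. The named genes are the 15 lost genes with the largest falls, the 6 reduced genes with the highest WT CPM, the 15 kept genes with the highest CPM and the 10 raised genes with the largest rises, all with no opposite gene and, but for the kept, at least 10 CPM in the higher strain and no overlap of libraries. Added were the 5 largest rises opposite tRNA genes, the 3 largest opposite snRNA genes, in each list the members of smallest p, 3 at most, and rde-4, dcr-1, rrf-3, eri-1, ergo-1, alg-3, alg-4, rde-1 and nrde-3. The comparison, the lists and the tests were chosen with earlier results of these data known. Messenger RNA data of the study were not analysed here.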

Additional observations from a re-analysis of the deposited data

Results flagged for a closer look

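The effect of RDE-4 loss differed between the WT and age-1 backgrounds at 9 genes by the interaction test across 12 libraries (edgeR, adjusted p below 0.05). linc-18, where all reads were gone in age-1; rde-4 and reads rose in rde-4, had an adjusted p of 2.8e-06. Y110A2AL.1, which kept reads in age-1; rde-4 and none in rde-4, had an adjusted p of 0.0299. Both have counts of 0 in a strain, so no size of the difference is given.

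By this fit, with TMM scaling alone, the other 7 genes rose more in the age-1 background than in the WT background. How far the sizes depend on the scaling was not tested. The interaction was 3.27 ± 0.61 (SE) for W07G1.17, 3.21 ± 0.61 for Y47H9A.5, 3.08 ± 0.60 for R05D7.8 and 3.08 ± 0.60 for Y54G9A.14, each with an adjusted p of 0.0299. It was 2.93 ± 0.60 for F08G2.17 (adjusted p = 0.0407), 2.97 ± 0.62 for F15H9.9 and 2.81 ± 0.58 for C05G6.5, both with an adjusted p of 0.0421. These genes have near-identical copies opposite snRNA genes or, for R05D7.8, no place in the annotation, and can share reads, so they are not 7 independent results. Their calls were lost when any of the 3 replicate numbers of WT and rde-4 was left out, when linc-18 alone passed.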

How the results depend on the processing

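Lower genes numbered 705 to 885 and higher genes 391 to 642 under the replicate block, other scalings, DESeq2 and no filter, against 767 and 516. Among genes with no opposite gene alone, 526 were lower, 169 higher, 128 lost and 387 kept. Leaving out 1 library gave 677 to 785 lower, 358 to 581 higher, 217 to 286 lost and 92 to 371 kept genes. The kept class moved most: 1038 genes with the replicate block, 262 under library totals, 164 with scaling by counts opposite miRNA genes and 233 with DESeq2, and 2412 or 10 with intervals within 1.5 or 0.75. With thresholds of -2 and -4, 449 and 105 genes were lost, and with no filter 297. The interaction called 24 genes with the replicate block and 1 to 1 without a replicate number, where fewer samples entered. For the other settings the cause was not tested.

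Over the named genes, 1431 of 1474 values kept their direction and side of the threshold. The call was lost in 28 values of 6 genes and gained in 15 values of 6 genes, and 0 turned the direction of a called change. Most of these genes were named for large changes, high levels or small p in the same libraries, so this share does not stand for all genes. Under every setting that kept all genes, 197 of 199 lost, 384 of 568 reduced and 273 of 516 raised genes held a call in the same direction. Among the named genes, the replicate block changed the calls of deps-1, pgl-3, his-70, col-45 and rol-3 alone, each from not passing to passing. Depth limits the low genes: libraries held 2449703 to 2839774 counts, most of them at 3 genes, and 4797 of 32238 genes had enough reads for the test.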
